A study of Drosophila melanogaster with 24 samples.

Results

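Glutathione S-transferase genes were followed in brain neuroblasts (neural stem cells) of the fruit fly Drosophila melanogaster. The members were all rows of the deposited count table whose symbol starts with Gst, followed by one of the class letters D, E, S, T, O or Z and a number, and 35 of 15339 genes met this rule. They comprise 11 delta, 14 epsilon, 3 omega, 1 sigma, 4 theta and 2 zeta genes. The rule itself reads symbols only. Glutathione S-transferases join the thiol of glutathione to reactive electrophiles, which makes toxins and products of lipid oxidation soluble and ready for export. The delta and epsilon classes have expanded in insects and are known mainly from detoxification, whereas the zeta class has a housekeeping role in the breakdown of tyrosine. As a family they are part of the redox metabolism that, together with thioredoxin, peroxiredoxins and the transcription factor cnc, keeps reactive oxygen species in check.

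The libraries came from GFP-labelled neuroblasts of 2 lineages. The antennal lobe (AL) is the first relay for smell, and the mushroom body (MB) stores odour memories. AL neuroblasts were sampled at 24, 36, 50 and 84 h after larval hatching, and MB neuroblasts at 24, 50 and 84 h after larval hatching and at 36 h in the pupa (called the MB pupa below), with 3 libraries in each of the 8 groups. Cells were picked by a robotic sorter from digested, pooled brains, and each library holds 89 to 121 pooled cells. In such bulk samples, fewer cells of a type and less RNA per cell cannot be told apart. The sources used here give neither the driver of the GFP label nor the genotype, and they name no treatment. No label says that replicates came from separate animals or cultures, so a p-value reflects library-to-library spread, which may be technical. AL libraries held 6.06 to 9.27 M gene counts (mega-counts) and MB libraries 3.15 to 5.83 M. At these depths 3 counts, the most that a count of 0 allows, corresponded to 0.3365 to 0.887 counts-per-million (CPM). This limit is on the same scale as the CPM values below and covers counting error only. The 9 neuroblast markers, among them dpn, mira and ase, summed to 4106 to 8287 CPM per library, and none of them was at 0 in any group.

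The members lie mostly in a few tandem clusters (positions on genome build dm3, as the deposited tables give them). All 11 delta genes lie within 20.9 kb on chromosome arm 3R (8190496 to 8211346), in the order GstD10, GstD9, GstD1, GstD2, GstD3, GstD4, GstD5, GstD6, GstD7, GstD8 and GstD11. A cluster on 2R (14284143 to 14297340) holds 10 of the 14 epsilon genes, GstE10 and GstE1 to GstE9. The 3 omega genes lie together on 3L (8511985 to 8517966), and GstZ1 and GstZ2 on 3R (5281239 to 5286374). Tandem copies of this family are alike in sequence, and the sources used here do not say how reads that match several copies were counted, so values of neighbouring copies are uncertain where a weak gene lies beside a strong one. Of the 35 members, 30 had enough counts to be tested. The other 5, GstD2, GstD7, GstD8, GstD11 and GstE14, had 22, 58, 14, 53 and 30 counts in all over the 24 libraries. GstE14, which acts in ecdysteroid synthesis, reached at most 1.41 CPM in a library.

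Per length, GstD1 and GstZ2 made up most of the transcripts of the family. Averaged over the 4 AL groups, GstD1 had 882 transcripts-per-million (TPM) and GstZ2 769 TPM, which are 35.0% and 30.5% of the summed TPM of the 35 genes. In the MB groups GstD1 had 1159 TPM (44.9%) and GstZ2 583 TPM (22.6%). These averages pool ages that differ. GstD1 was behind GstZ2 in AL at 84 h (526 and 853 TPM) and in the MB pupa (424 and 1020 TPM), and GstD3 had 279.8, 169, 53.4 and 2.67 TPM over the AL ages. The sum over the 35 genes at 24, 36, 50 and 84 h in AL was 3349 ± 421, 2474 ± 128, 2215 ± 217 and 2042 ± 98.5 TPM (mean ± SD, n = 3). In MB at 24, 50 and 84 h and in the pupa it was 3274 ± 745, 2981 ± 149, 2144 ± 133 and 1925 ± 126 TPM.

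The make-up of that sum differed between ages in both lineages. Delta genes took 50.5%, 51.6%, 44.0% and 31.5% of the family's TPM at 24, 36, 50 and 84 h in AL. In MB the delta share was 63.2%, 61.0% and 51.1% at 24, 50 and 84 h, and 27.9% in the pupa. Zeta genes took 25.4%, 26.6%, 35.3% and 42.5% over the same ages in AL, and 13.3%, 16.2%, 21.3% and 53.4% over the MB series. The delta share was thus lowest, and the zeta share highest, in the last group of each lineage. These shares were not tested.

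**Figure D1:**
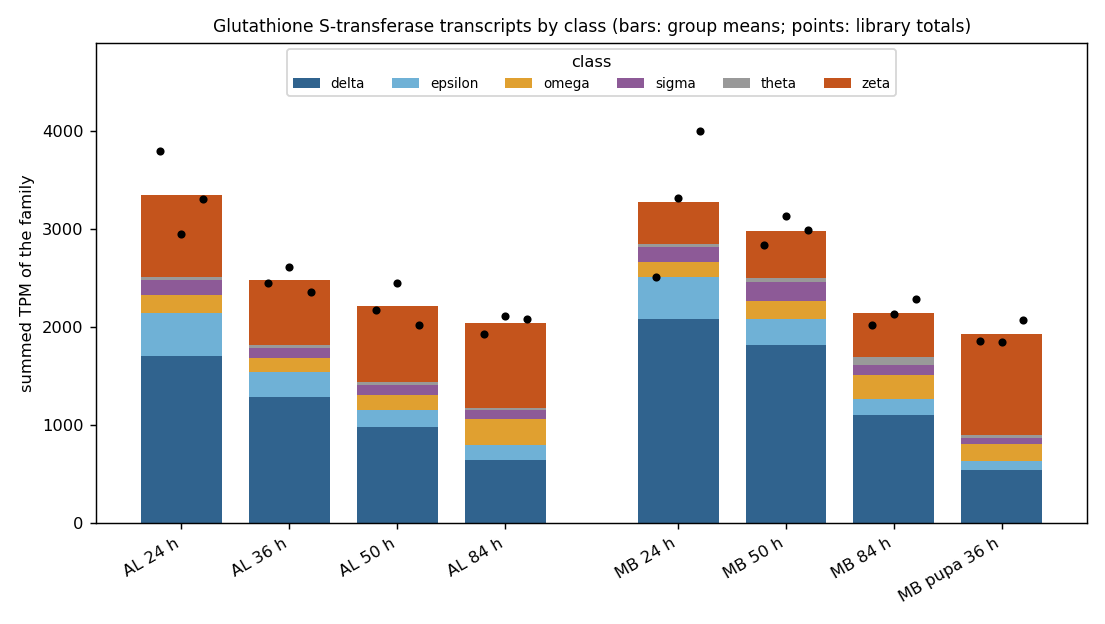
Summed TPM of the 35 genes (vertical axis) in the 8 groups, AL left and MB right, with bars stacked by class (means of 3 libraries) and black points for the total of each library. The delta block is tallest at MB 24 h (2080 TPM) and the zeta block in the MB pupa (1029 TPM).

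Across the 9 comparisons made, 13 of the 30 tested members passed the test (edgeR, adjusted p under 0.05) in at least 1 comparison and 17 in none, where 35% of all genes tested were called in at least 1 of the 9. In AL, 84 h against 24 h, 5 members passed, where 12.4% of all genes tested were called. GstO2 was higher (background 5.67%) and GstD1, GstD3, GstE1 and GstS1 were lower (background 6.7%). At the same ages in MB, 4 passed, against a background of 14.4%. GstO2 was higher (background 5.81%) and GstD1, GstE1 and GstE12 were lower (background 8.63%). In the MB pupa against MB at 84 h, 4 passed, where 2.61% of all genes were called. GstZ2 was higher (background 0.726%) and GstD1, GstD3 and GstD9 were lower (background 1.88%). The median log2 fold change of the tested members for 84 h against 24 h was -0.93 in AL and -0.27 in MB, and -0.88 for the pupa, beside -0.02, 0.05 and -0.02 over all genes.

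Between the lineages, 4 members passed at 24 h (background 10.8%), 3 of them higher in AL (background 4.75%) and 1 lower (6.1%). At 50 h 7 passed (background 11.3%), 2 higher in AL (6.39%) and 5 lower (4.94%). At 84 h 5 passed (background 7.67%), 1 higher in AL (4.42%) and 4 lower (3.25%). The change from 24 to 84 h differed between AL and MB for 2 members, GstD3 and GstD4, where 4.71% of all genes were called, 1.78% with a more negative change in AL as in both members. Over the 4 ages, 6 members changed in AL (background 15.3%) and 10 in MB (background 17.7%). With any 1 library left out the counts were 3 to 6 in AL, 2 to 4 in MB, 3 to 4 in the pupa, 4 between lineages at 24 h, 4 to 8 at 50 h and 2 to 3 at 84 h. The libraries concerned, or the number of fits, are given with each gene. These are small counts, beside 30 members tested in the main fit. Each fit with 1 library left out filtered the genes anew, and its calls need not be those of the main fit. For AL at 84 h against 24 h, the fit without AL 24 h replicate 1 called 6 members, of which 4 were called in the main fit. Over all genes, leaving out 1 library called 450 to 550 higher and 465 to 663 lower in AL (main fit 585 and 692). In MB it was 397 to 496 and 681 to 803 (600 and 891). In the pupa it was 42 to 70 and 115 to 192 (75 and 194). Between lineages it was 351 to 485 and 466 to 594 at 24 h (490 and 630). At 50 h it was 429 to 542 and 333 to 414 (660 and 510). At 84 h it was 309 to 445 and 204 to 275 (456 and 336). Scaling by spike-in RNA and the recorded number of cells, which measures RNA per cell and not the share of a library, changed the splits. It gave 1 higher and 2 lower in AL (84 h against 24 h), where 14.4% of all genes were called higher and 1.45% lower. In MB at those ages it gave 0 higher and 4 lower (2.03% and 7.06% of all genes), and in the pupa 1 and 1 (0.271% and 0.697%). Between lineages it gave 2 higher and 5 lower in AL at 24 h, where 0.891% of all genes were called higher and 38.7% lower, so the share of members called lower was below that of all genes. At 50 h it gave 2 higher and 0 lower (5.74% and 1.13%), at 84 h 0 and 3 (0.785% and 2.46%), and for the difference in change 1 and 2 (9.62% and 0.833%). The all-gene median log2 fold change under that scaling was 0.59 in AL (84 h against 24 h), -0.18 in MB at those ages, -1.06 between lineages at 24 h, 0.35 at 50 h, -0.27 at 84 h and 0.81 for the difference in change.

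**Figure D2:**
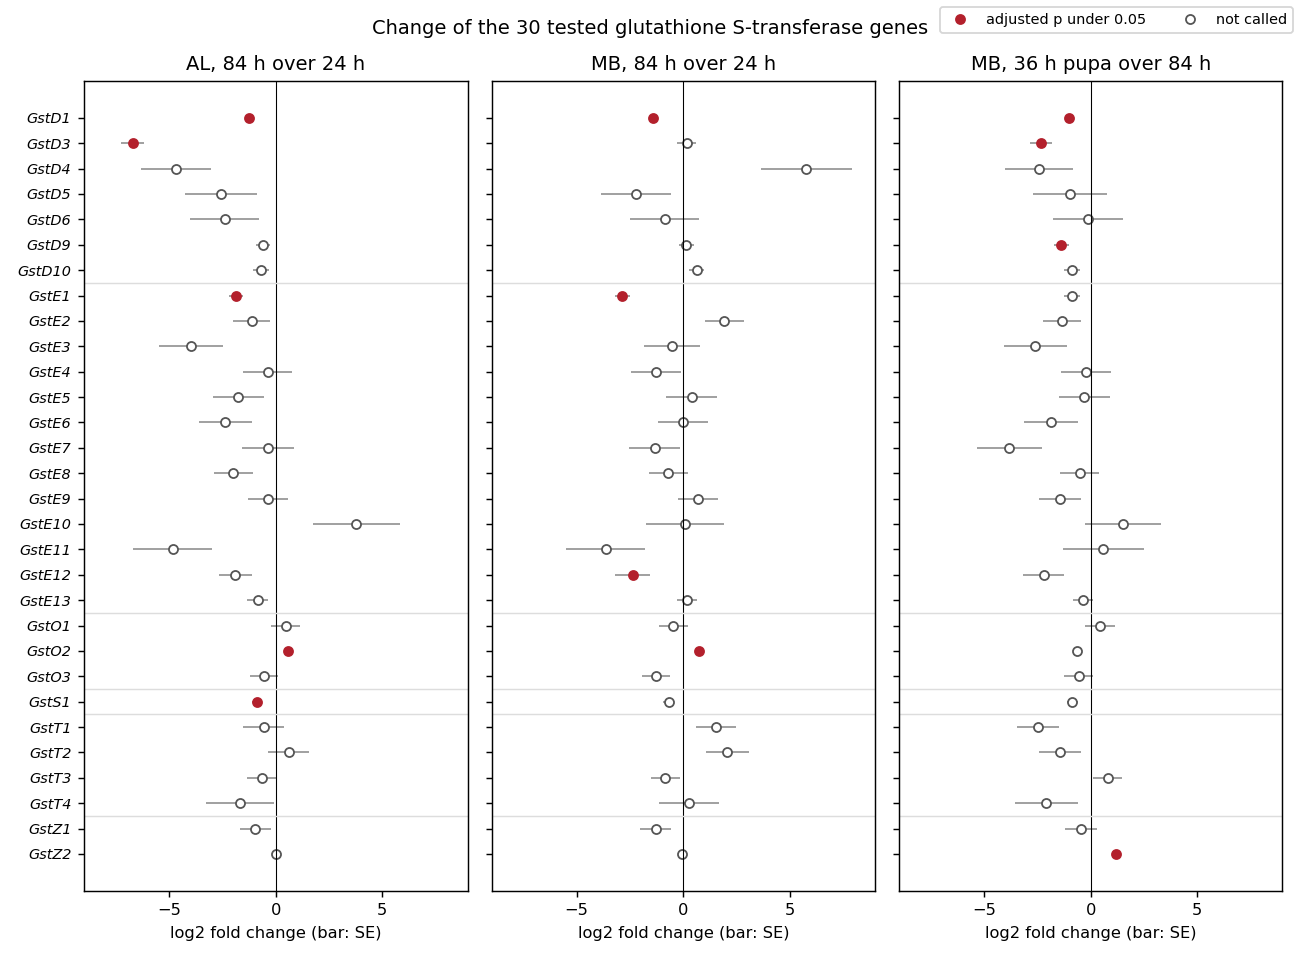
Log2 fold change (horizontal axis, bars 1 SE) of the 30 tested members, by class from top to bottom, in AL at 84 h over 24 h, MB at 84 h over 24 h and the MB pupa over 84 h. Red points passed the test. The long bars belong to members with few counts, and GstD4 in MB rests on a group with no counts.

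Among the delta genes, GstD1, the most abundant of them and a detoxifying enzyme whose gene is widely used as a reporter of oxidative stress, fell with age in both lineages. In AL it had 699.8, 527 and 607 CPM in the 3 libraries at 24 h, 530.2, 671 and 454 at 36 h, 421, 425 and 381 at 50 h and 252, 299 and 203 at 84 h. In MB it had 684, 1075 and 1381 CPM at 24 h, 702, 752 and 769 at 50 h, 384, 370.2 and 435 at 84 h and 198, 189.8 and 202 in the pupa. Every library at 84 h lay below every library at 24 h of the same lineage, and every pupal library below every MB library at 84 h. The change at 84 h against 24 h, given as log2 fold change ± SE here and for the other genes, passed in AL (-1.28 ± 0.17, edgeR adjusted p = 1.5e-06) and in MB (-1.40 ± 0.17, edgeR adjusted p = 2.3e-07). The pupa lay lower than MB at 84 h by a further step (-1.01 ± 0.17, edgeR adjusted p = 0.00023). The change from 24 to 84 h differed between AL and MB by 0.12 ± 0.24 (log2, SE), which did not pass the test (edgeR adjusted p = 0.86). GstD1 was lower in AL than in MB at 24 h (-0.78 ± 0.17, edgeR adjusted p = 0.0016), where the libraries overlapped. It was also lower at 50 h (-0.86 ± 0.17, edgeR adjusted p = 0.00052) and at 84 h (-0.66 ± 0.17, edgeR adjusted p = 0.011), where they did not. Leaving out AL replicate 3 or MB replicate 3 ended the call at 84 h, and that at 24 h gave an edgeR adjusted p of 0.052 when only those libraries were fitted. With spike-in scaling the fall in AL (-0.65, edgeR adjusted p = 0.11), the pupal fall (-0.93, adjusted p = 0.14) and the lineage differences at 50 h (-0.49, adjusted p = 0.34) and 84 h (-0.86, adjusted p = 0.087) did not pass, and the difference at 24 h was -1.86 (adjusted p = 1.7e-07). The all-gene medians under that scaling were 0.59 in AL (84 h against 24 h) and 0.04 in the pupa. Between lineages they were -1.06 at 24 h, 0.35 at 50 h and -0.27 at 84 h.

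GstD3 showed the largest fold change among the members called in AL, and its course differed between the lineages. AL neuroblasts had 93.5, 76.9 and 89.0 CPM at 24 h, 52.1, 53.0 and 67.7 at 36 h, 15.0, 18.7 and 17.2 at 50 h and 0.785, 0.985 and 0.604 at 84 h, where the last 3 libraries held 7, 8 and 4 counts. MB neuroblasts had 2.70, 6.63 and 12.6 CPM at 24 h, 8.87, 4.90 and 2.63 at 50 h, 9.23, 7.89 and 6.95 at 84 h and 1.64, 0.202 and 2.68 in the pupa. The 4 AL groups did not overlap one another, whereas the 3 larval MB groups did. At 84 h against 24 h GstD3 fell in AL (-6.72 ± 0.55, edgeR adjusted p = 9.9e-13), which is 105.6-fold lower, while the change in MB did not pass (0.15 ± 0.44, edgeR adjusted p = 0.87). The difference between these changes passed the test (-6.88 ± 0.69, edgeR adjusted p = 9.5e-10). The lineage difference turned round with age. GstD3 was 12.0-fold higher in AL than in MB at 24 h (3.58 ± 0.45, edgeR adjusted p = 8.6e-08), 3.14-fold higher at 50 h (1.65 ± 0.45, edgeR adjusted p = 0.0096) and 9.81-fold lower at 84 h (-3.29 ± 0.52, edgeR adjusted p = 1.4e-05). In the pupa it was lower than in MB at 84 h (-2.33 ± 0.50, edgeR adjusted p = 0.0029), with 7, 1 and 19 counts in the pupal libraries. The 50 h difference did not pass without MB replicate 3 at 50 h, nor with limma on log2(TPM + 0.1) (adjusted p = 0.075), and the pupal one did not pass when only those libraries were fitted (edgeR adjusted p = 0.11). The size of the fall in AL was -6.90 to -6.58 with any 1 library left out, and 69.5-fold with spike-in scaling (-6.12). At 24 h GstD3 was 18.7-fold higher in AL without MB replicate 3, and 5.67-fold higher with spike-in scaling. The pupal level was 8.82-fold lower without pupal replicate 3, against 5.03-fold with all libraries, and 7.86-fold lower with limma on log2(TPM + 0.1).

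**Figure D3:**
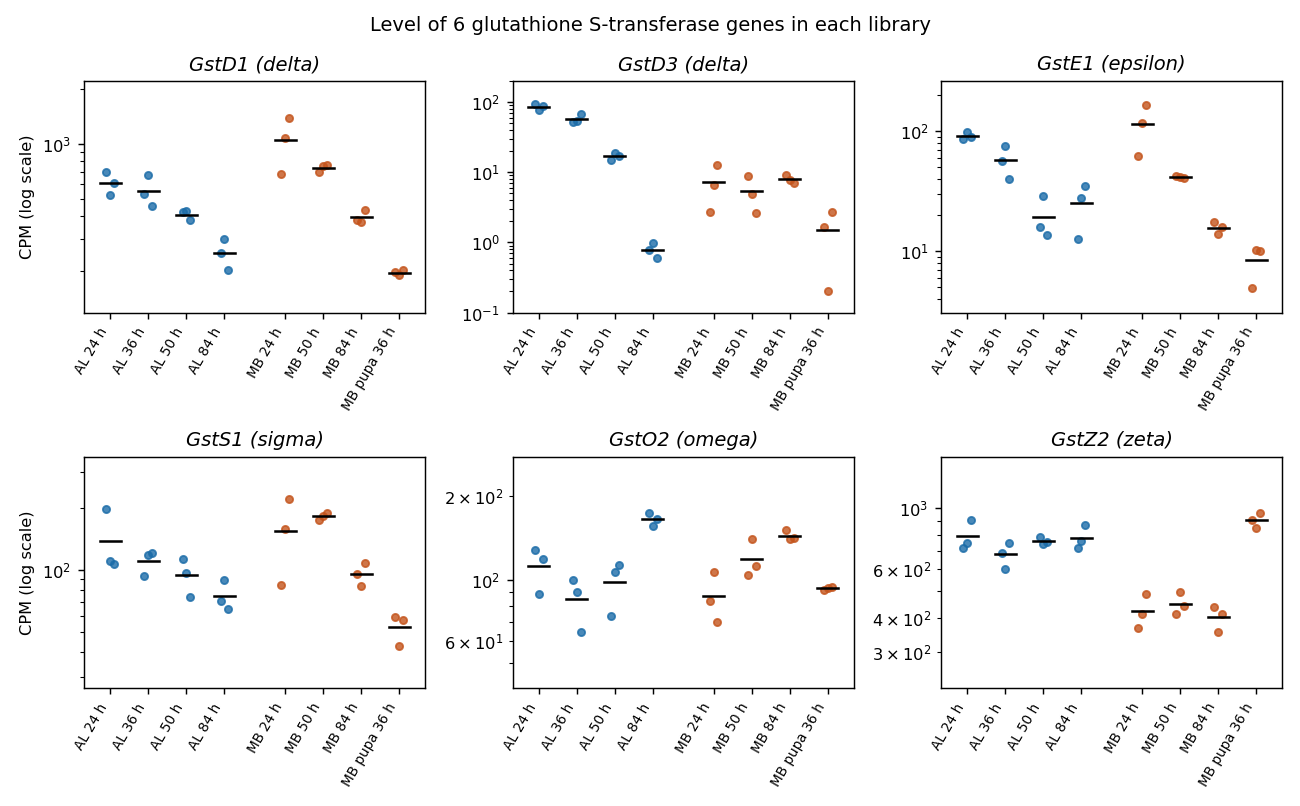
CPM per library on log axes for GstD1, GstD3, GstE1, GstS1, GstO2 and GstZ2 in the 8 groups, AL in blue and MB in orange, with black lines at the mean of 3 libraries. Within AL, GstD3 spans from 93.5 CPM at 24 h to 0.604 CPM at 84 h, and its lowest point in the panel is a pupal library (0.202 CPM). The 12 AL libraries of GstZ2 lie between 603 and 909 CPM.

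GstD9 and GstD10, which lie beside GstD1 in the cluster, followed other courses. GstD9 had 36.1, 29.3 and 20.6 CPM at 24 h, 18.5, 21.5 and 14.5 at 36 h, 19.0, 33.4 and 18.1 at 50 h and 12.3, 18.1 and 26.3 at 84 h in AL. Its MB values were 25.0, 33.8 and 21.8 CPM at 24 h, 38.4, 38.7 and 57.0 at 50 h, 23.6, 27.8 and 38.1 at 84 h and 9.12, 11.5 and 13.8 in the pupa. Pupal libraries lay below all MB libraries at 84 h (-1.37 ± 0.35, edgeR adjusted p = 0.019), a call lost without MB 84 h replicate 3 or pupal replicates 1 or 2, and with spike-in scaling (edgeR adjusted p = 0.18). In AL, GstD10 had 26.3, 32.7 and 18.9 CPM at 24 h, 9.72, 30.6 and 21.7 at 36 h, 11.4, 28.3 and 16.4 at 50 h and 13.6, 18.5 and 15.8 at 84 h. In MB it had 36.6, 15.0 and 20.9 CPM at 24 h, 42.9, 46.3 and 76.1 at 50 h, 36.3, 39.6 and 36.3 at 84 h and 20.8, 16.8 and 23.3 in the pupa, so that the 50 h group was highest. GstD10 was lower in AL than in MB at 50 h (-1.56 ± 0.37, edgeR adjusted p = 0.0029) and at 84 h (-1.23 ± 0.37, edgeR adjusted p = 0.029), with no overlap of libraries at either age. The 84 h call was lost with any 1 of the 6 libraries left out, and the 50 h call with spike-in scaling (edgeR adjusted p = 0.075). Over the 4 MB ages GstD9 (edgeR adjusted p = 0.00053) and GstD10 (adjusted p = 0.0097) changed, GstD10 not without MB 50 h replicate 3 nor with spike-in scaling (adjusted p = 0.43).

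Of the weaker delta genes, GstD4 passed the test in 3 comparisons. It had 15, 65 and 26 counts in AL at 24 h, 1, 33 and 24 at 36 h, 1, 1 and 0 at 50 h, and 4, 1 and 0 at 84 h. In MB it had no count at 24 h, 1, 3 and 3 counts at 50 h, 0, 1 and 17 at 84 h, and 2, 0 and 1 in the pupa. At 24 h it was at least 8.87-fold higher in AL than in MB, against a floor of 3 counts per library (edgeR adjusted p = 0.0099), and at least 5.41-fold higher without AL replicate 2, which holds 65 of the 106 AL counts. Its change over the 4 AL ages passed (edgeR adjusted p = 0.022), a call that ended when replicate 2 of AL at 24 h or replicate 3 of AL at 50 h was left out, and with spike-in scaling (adjusted p = 0.059). The difference between lineages in its change from 24 to 84 h (edgeR adjusted p = 0.013) was lost without MB 84 h replicate 3, which holds 17 of the 18 MB counts at that age, and its fitted size has no meaning as a fold because MB at 24 h was at 0. GstD5 and GstD6, the other tested delta genes, passed in no comparison and reached at most 8.32 and 3.92 CPM in a library.

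**Figure D4:**
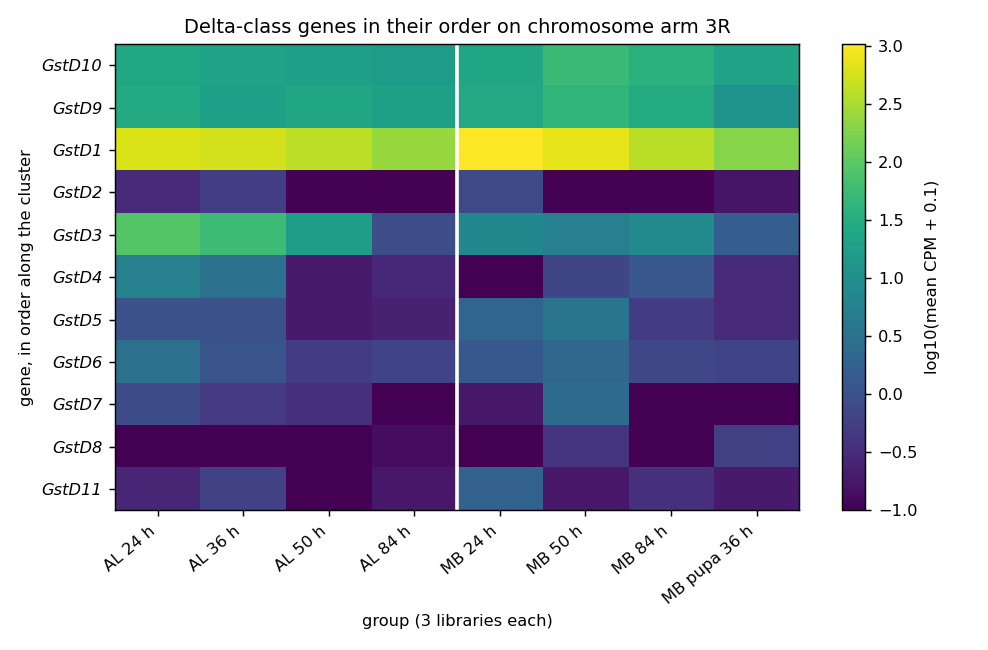
Mean level of the 11 delta genes (rows, in order along the cluster) in the 8 groups (columns, AL left and MB right), shown as log10 of the mean CPM + 0.1. GstD1 is the brightest row in every group, and GstD3 runs from bright to dark across the AL ages.

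Among the epsilon genes, GstE1 was the most abundant and fell with age in both lineages. Its AL libraries held 85.8, 98.4 and 89.2 CPM at 24 h, 56.6, 75.8 and 39.8 at 36 h, 15.9, 28.9 and 13.5 at 50 h and 12.6, 27.9 and 35.0 at 84 h. Its MB libraries held 62.0, 117 and 164 CPM at 24 h, 42.0, 41.4 and 40.5 at 50 h, 17.4, 13.8 and 15.8 at 84 h and 4.91, 10.3 and 10.0 in the pupa. The libraries at 84 h lay below those at 24 h in both lineages. GstE1 was lower at 84 h in AL (-1.86 ± 0.34, edgeR adjusted p = 0.00013) and 7.29-fold lower in MB (-2.87 ± 0.35, edgeR adjusted p = 1.5e-07). The difference between the lineages in this change was 1.00 ± 0.47 (log2, SE) and did not pass (edgeR adjusted p = 0.25). At 50 h GstE1 was lower in AL than in MB (-1.09 ± 0.34, edgeR adjusted p = 0.03), a call that was lost without any 1 of AL 50 h replicates 1 or 3 or MB 50 h replicates 1, 2 or 3, and with spike-in scaling (edgeR adjusted p = 0.23).

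GstE12, GstE3 and GstE7 had few counts. In AL, GstE12 had 12.9, 19.2 and 9.26 CPM at 24 h, 11.2, 18.4 and 4.79 at 36 h, 2.29, 0.449 and 7.41 at 50 h and 4.37, 3.57 and 3.02 at 84 h. In MB, GstE12 had 13.9, 7.06 and 11.2 CPM at 24 h, 1.18, 4.90 and 0.718 at 50 h, 0.615, 3.58 and 1.88 at 84 h and 0.701, 0 and 0.564 in the pupa. It fell in MB at 84 h against 24 h (-2.38 ± 0.81, edgeR adjusted p = 0.04), but not without MB 24 h replicates 1 or 3 or MB 84 h replicates 1 or 3, nor with limma on log2(TPM + 0.1) (adjusted p = 0.1), and it was 8.38-fold lower without MB 84 h replicate 2, against 5.20-fold with all libraries. Over the 4 MB ages GstE12 also passed. That call held in all 12 fits with 1 library left out (edgeR adjusted p from 0.0002 to 0.0066). GstE12 overlaps CG3894 on the other strand, and the sources used here do not say whether counting used strand. The group means of CG3894 lay between 9.01 and 13.9 CPM. GstE3 had 3 counts in all in AL at 50 h and 44 in MB, a counting ratio of 26.9-fold lower in AL (95% Poisson interval 8.63 to 135.5, which covers counting error only). Its call (edgeR adjusted p = 0.045) was lost without any 1 of the 6 libraries and with spike-in scaling (adjusted p = 0.095). In AL it had 0, 4.91 and 4.29 CPM at 24 h, 2.93, 4.20 and 0.599 at 36 h, 0.286, 0 and 0.130 at 50 h and 0, 0.369 and 0.151 at 84 h. The MB values were 0.360, 1.28 and 5.46 CPM at 24 h, 5.32, 3.67 and 2.63 at 50 h, 2.05, 0.717 and 2.07 at 84 h and 0, 0.606 and 0.141 in the pupa. Over the 4 AL ages GstE3 passed (edgeR adjusted p = 0.042), and it lost that call in 8 of the 12 fits with 1 library left out. The call was also lost with the fit of AL alone (edgeR adjusted p = 0.1) and with spike-in scaling (edgeR adjusted p = 0.085). Limma on log2(TPM + 1) (adjusted p = 0.086) or log2(TPM + 0.1) (adjusted p = 0.16) did not call GstE3 either. GstE7 had 0.158, 3.23 and 1.54 CPM at 24 h, 0, 5.25 and 1.20 at 36 h, 0.715, 1.05 and 1.82 at 50 h and 0.561, 3.08 and 0.151 at 84 h in AL. In MB it had 0.360, 5.35 and 9.49 CPM at 24 h, 2.96, 13.5 and 4.07 at 50 h, 3.90, 0.717 and 1.31 at 84 h and 0, 0.202 and 0.141 in the pupa. It passed only over the 4 MB ages (edgeR adjusted p = 0.038), and it lost that call in 6 of the 12 fits with 1 library left out.

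GstS1, the only sigma gene, acts on the lipid peroxidation product 4-hydroxynonenal. The AL libraries gave 199, 111 and 108 CPM at 24 h, 93.1, 118 and 122 at 36 h, 113, 96.3 and 73.9 at 50 h and 70.8, 89.6 and 64.5 at 84 h. The MB libraries gave 84.3, 158 and 224 CPM at 24 h, 175, 183 and 191 at 50 h, 95.8, 83.4 and 109 at 84 h and 58.9, 42.4 and 56.8 in the pupa. It fell in AL at 84 h against 24 h (-0.89 ± 0.25, edgeR adjusted p = 0.014) and changed over the 4 MB ages (edgeR adjusted p = 9.2e-06), with the 50 h group the highest. At 50 h it was lower in AL than in MB (-0.95 ± 0.25, edgeR adjusted p = 0.0094). The fall in AL was lost without AL 24 h replicate 1 or AL 84 h replicates 1 or 3, with limma on log2(TPM + 1) (adjusted p = 0.068) and with spike-in scaling (edgeR adjusted p = 0.62). The 50 h difference was lost without AL 50 h replicate 3 and with spike-in scaling (edgeR adjusted p = 0.29).

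GstO2, an omega gene, was the one member to pass with a higher level at 84 h than at 24 h, and it did so in both lineages. Values in AL were 128, 88.4 and 118 CPM at 24 h, 99.9, 90.2 and 64.7 at 36 h, 74.0, 107 and 113 at 50 h and 174, 157 and 166 at 84 h. Values in MB were 83.6, 107 and 70.5 CPM at 24 h, 104, 139.8 and 112 at 50 h, 151, 139.8 and 141 at 84 h and 91.8, 93.1 and 93.9 in the pupa. The 84 h libraries lay above those at 24 h in AL (0.57 ± 0.19, edgeR adjusted p = 0.036) and in MB (0.73 ± 0.19, edgeR adjusted p = 0.0051). The AL call was lost without AL 24 h replicates 2 or 3 or AL 84 h replicates 1, 2 or 3, and the MB call without MB 24 h replicate 3. With spike-in scaling the MB difference did not pass (edgeR adjusted p = 0.42), and the AL difference was 1.19 (adjusted p = 0.0046) beside the all-gene median of 0.59. GstO2 also passed over the 4 AL ages (edgeR adjusted p = 0.00057) and over the 4 MB ages. Each of these 2 calls held in all 12 fits with 1 library left out. GstO2 overlaps sepia (se), the omega-class enzyme of red eye pigment synthesis, on the other strand, and se was at 0.735 to 5.25 CPM as a group mean. AL against MB did not pass at 24 h (0.36, 95% interval -0.01 to 0.73, edgeR adjusted p = 0.24), at 50 h (-0.27, -0.64 to 0.10, adjusted p = 0.42) or at 84 h (0.20, -0.16 to 0.57, adjusted p = 0.62), and GstO1 and GstO3 passed in no comparison.

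GstZ2, a zeta gene whose class is maleylacetoacetate isomerase in tyrosine breakdown, was high in every group and split the lineages. In AL it had 718, 747 and 909 CPM at 24 h, 688, 603 and 749.7 at 36 h, 785, 744 and 752 at 50 h and 716, 760.0 and 867 at 84 h. In MB it had 366, 412 and 488 CPM at 24 h, 413, 498 and 440.0 at 50 h, 438, 355 and 411 at 84 h and 907, 851 and 962 in the pupa. Every AL library lay above every larval MB library, and the pupal libraries lay in or above the AL range. GstZ2 was higher in AL than in MB at 24 h (0.91 ± 0.12, edgeR adjusted p = 4.9e-07), at 50 h (0.76 ± 0.12, edgeR adjusted p = 1.7e-05) and at 84 h (0.96 ± 0.12, edgeR adjusted p = 2.5e-07). It rose 2.26-fold in the pupa against MB at 84 h (1.18 ± 0.12, edgeR adjusted p = 3e-09). At 84 h against 24 h neither lineage passed, with differences of -0.02 in AL (95% interval -0.26 to 0.22) and -0.07 in MB (-0.31 to 0.17), on the log2 scale. All these calls held with any 1 library left out. With spike-in scaling the difference at 24 h turned to -0.16 (edgeR adjusted p = 0.68), where the all-gene median was -1.06, and relative to that median it was 0.89, while the 84 h difference was 0.72 (adjusted p = 0.19). GstZ1, next to it, was weak, at no more than 18.0 CPM in a library, and passed in no comparison.

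The theta genes were weak, and GstT1 was the only one to pass in a comparison. Its AL libraries had 2.52, 2.30 and 0.514 CPM at 24 h, 1.33, 0.175 and 1.32 at 36 h, 3.29, 4.79 and 0.260 at 50 h and 1.46, 1.23 and 0.906 at 84 h. Its MB libraries had 9.19, 1.71 and 1.42 CPM at 24 h, 3.25, 8.32 and 1.68 at 50 h, 10.5, 15.8 and 9.77 at 84 h and 4.67, 1.21 and 0.705 in the pupa. At 84 h it was lower in AL than in MB (-3.30 ± 1.00, edgeR adjusted p = 0.031), with no overlap of libraries. The call was lost without any 1 of AL 84 h replicates 1, 2 or 3 or MB 84 h replicates 1 or 2, and with limma on log2(TPM + 0.1) (adjusted p = 0.054). The tracheal and gut markers, 7 genes in all, summed to 42.9 CPM in AL at 84 h (30.3 to 51.8) and 114 CPM in MB at 84 h (62.7 to 149). The sum differed mainly through verm (0.364 CPM in AL, 41.0 CPM in MB) and Gasp (6.23 CPM in AL, 41.6 CPM in MB), while trh was higher in AL (17.2 CPM) than in MB (6.26 CPM). Their part in the GstT1 difference was not tested.

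The 17 tested members that passed nowhere had at most 1.14 to 19.4 CPM as the mean of their highest group, with a median of 4.69 CPM. GstE13, GstE8, GstO3 and GstZ1 were the 4 of them with a group mean of at least 10 CPM. Their smallest adjusted p in any comparison of a pair of groups was 0.079 (edgeR), for GstD5, which held 2 counts in AL and 42 in MB at 50 h. By unadjusted p under 0.05 (edgeR), 9 of the 17 passed in at least 1 comparison, DESeq2 called 5 and limma on log2(TPM + 1) called 3. Of all 6710 genes called in none of the 9 comparisons, 44.6%, 14.9% and 13.7% passed by these rules. Spike-in and cell number scaling called 2 of the 17, GstO1 and GstO3, and the share of the 6710 genes it called is not given. GstE9, GstE13 and GstT2 overlap imd, CG18659 and CG12926 on the other strand.

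Markers of other cell types moved with some of these results. Glial markers, 9 genes led by nrv2, summed to 412 CPM in AL at 84 h (391 to 437), against 625 CPM at 24 h (512 to 696), and to 409 CPM in MB at 84 h (359.6 to 435), against 605 CPM at 24 h (575 to 632). Most of that difference lay in nrv2, at 263 CPM in AL at 84 h, against 418 CPM at 24 h, and at 199 CPM in MB at 84 h, against 364 CPM at 24 h. The glial gene repo was near 0, at 1.31 CPM in AL at 84 h, against 3.49 CPM at 24 h, and at 1.34 CPM in MB at 84 h, against 0.402 CPM at 24 h. Neuron markers, 11 genes led by elav with none at 0, summed to 778 CPM in the MB pupa (715 to 827), against 524 CPM in MB at 84 h (461 to 565), with no overlap. In MB they summed to 524 CPM at 84 h, against 693 CPM at 24 h (655 to 757), and in AL to 507 CPM at 84 h (480.4 to 541), against 539 CPM at 24 h (498 to 576). The list did not move as one. In MB elav was lower at 84 h than at 24 h (306 against 423.5 CPM), as were futsch and cpx. Higher at 84 h were Appl (112 against 82.7 CPM), Syt1 (41.1 against 18.5 CPM) and brp (22.2 against 17.4 CPM). The neuroblast sum in MB was 6693 CPM at 24 h (6375 to 6891), 5039 CPM at 84 h (4106 to 5730) and 5179 CPM in the pupa (5043 to 5300). Haemocyte markers, 7 genes, summed to 14.1 CPM in AL at 84 h (4.49 to 25.7), against 51.5 CPM at 24 h (18.0 to 82.2), with He at 0 in both groups and eater at 0 at 84 h. In MB they summed to 25.7 CPM at 84 h (21.2 to 31.4), against 30.5 CPM at 24 h (21.4 to 48.2), with eater at 0 at 84 h and He at 0 at 24 h. Fat body markers, 7 genes, lay between 21.6 and 45.2 CPM as group means, with Lsp2 or Fbp2 at 0 in 6 of the 8 groups. Tracheal and gut markers, 7 genes, summed to 35.3 CPM in the MB pupa (25.1 to 50.25). In MB at 84 h they summed to 114 CPM (62.7 to 149), with no overlap. The pupa was lower in verm (0.0779 against 41.05 CPM) and Gasp (0.156 against 41.6 CPM) and higher in trh (16.7 against 6.26 CPM). The part of these cells in the falls of GstD1, GstD3, GstE1 and GstS1, and in the pupal changes of GstD1, GstD3, GstD9 and GstZ2, was not tested.

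Glutathione S-transferase genes under other symbols were followed beside the family. Mgstl, a microsomal glutathione S-transferase, was at 10.7 ± 1.32 CPM in AL at 84 h, against 25.2 ± 3.39 CPM at 24 h (-1.23 ± 0.35, edgeR adjusted p = 0.014). In MB it was at 6.25 ± 0.459 CPM at 84 h, against 20.7 ± 2.85 CPM at 24 h (-1.72 ± 0.37, edgeR adjusted p = 0.00067), so it fell in both lineages like GstD1 and GstE1. The gene gfzf, which joins zinc fingers to a glutathione S-transferase domain, was higher in MB at 84 h (64.1 ± 3.58 CPM) than at 24 h (34.7 ± 5.60 CPM; 0.89 ± 0.26, edgeR adjusted p = 0.013).

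The other redox lists are given beside the 12.4% of all genes called in AL and 14.4% in MB at 84 h against 24 h. In the list of glutathione synthesis and recycling 15 of 21 genes were tested, and 2 passed in AL at 84 h against 24 h (1 higher, 1 lower) and 2 in MB (both lower), which is near those shares. Trx-2, a thioredoxin, fell in AL (-0.51 ± 0.16, edgeR adjusted p = 0.025) and in MB (-1.31 ± 0.16, edgeR adjusted p = 4.2e-08), and the change differed between the lineages (edgeR adjusted p = 0.026). Cbs, which makes cystathionine on the way to cysteine, fell in MB (-2.14 ± 0.40, edgeR adjusted p = 7.7e-05). For peroxide and superoxide removal, 11 of 16 genes were tested and 2 passed in AL (1 higher, 1 lower). In MB 0 passed by edgeR, 2 had an unadjusted p under 0.05 and DESeq2 called 1. Cat, the catalase gene, was at 137 ± 18.0 CPM in AL at 84 h, against 38.5 ± 7.06 CPM at 24 h, and at 65.7 ± 9.90 CPM in MB at 84 h, against 66.0 ± 19.7 CPM at 24 h. Its rise in AL passed (1.83 ± 0.26, edgeR adjusted p = 1.8e-06), and so did the difference between the lineages (1.83 ± 0.37, edgeR adjusted p = 0.00094), opposite in sign to that of GstD3. Among 9 tested NADPH genes, Men, the cytosolic malic enzyme, was higher at 84 h than at 24 h in AL (0.65 ± 0.18, edgeR adjusted p = 0.01) and in MB (0.85 ± 0.18, edgeR adjusted p = 0.00046). The transcription factor gene cnc, which with Keap1 controls the oxidative stress response and GstD1 among its targets, fell in MB (-0.76 ± 0.16, edgeR adjusted p = 0.00053) and passed over the AL ages (edgeR adjusted p = 0.0055). Of 37 tested genes for other detoxification enzymes, 1 passed in AL and 2 in MB at 84 h against 24 h, shares below those of all genes.

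Genes of similar pattern were found by Pearson correlation of mean log2 CPM over the 8 groups, which is a description with no test. GstD1 ran most like cwo (r = 0.985), bmm (0.968) and CG14945 (0.967), and GstE1 most like Lar (0.980), CG4065 (0.970) and PNUTS (0.950). GstD3 was nearest to CG32479 (0.969), CR43951 (0.969) and CG32815 (0.966), GstS1 to se (0.975) and Hsp26 (0.968), and GstZ2 to CG17746 (0.964). The 8 points rest on the same 24 libraries for every gene. Correlation takes no account of the size of a change. Group levels, as CPM with an offset of 0.5, ran from 496 to 841 for CG32479 and from 1.37 to 4.19 for CR43951. These spans are far narrower than that of GstD3. The levels of se ran from 1.08 to 5.67 with that offset, which is low.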

How the data were processed

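Sorted neuroblast pools of the AL and MB lineages gave 24 RNA-seq libraries. The deposited tables of the authors hold read counts and TPM values, by gene and library. Per the submitters' processing notes, HTSeq 0.6.1p1, STAR 2.4.0i, Bowtie2 2.1.0, cutadapt 1.7.1 and CASAVA were used, with the builds mm10 and dm3. The sources used here give neither the annotation version nor the strand setting, the filters or the treatment of reads that match several genes.

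The deposited counts were fitted with edgeR 4.0.16 in R 4.3.3 (TMM scaling, filterByExpr, robust quasi-likelihood fit) to all 24 libraries with 1 mean per group. The fit covered 10324 genes (common BCV, the biological coefficient of variation, 0.471). Adjustment was by Benjamini-Hochberg over all of them, with a threshold of 0.05. CPM were computed on the TMM scale, and levels per length are the authors' TPM. A row without a gene name held at most 0.00018% of a library's counts and was left out, as were the HTSeq summary rows. HTSeq listed 6.88% to 11.6% of counts as lying in no feature and 1.09% to 1.39% as ambiguous. The script was tested on simulated data.

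All 35 identifiers were found in the reference gene table, and 14 members have another symbol in the TPM table. Values are printed for every member called in at least 1 of the 9 comparisons, and other members are given by range. Of each other gene list, up to 4 genes with the smallest adjusted p could be named. The members, lists and rules were chosen with earlier results of these data known. Alternatives were DESeq2 1.42.0 and its size factors, spike-in and cell number scaling, no filter or at least 5 CPM in 3 libraries, a fit of only the compared groups, limma 3.58.1 on log2(TPM + 1) and log2(TPM + 0.1), the replicate number as a block, and each library left out. Protein and promoter sequences were not used here.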

Additional observations from a re-analysis of the deposited data

Results flagged for a closer look

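The change from 24 to 84 h differed between the lineages, by a test of the difference itself, for GstD3 and GstD4. For GstD3 the AL minus MB difference was -6.88 ± 0.69 (log2, SE; edgeR adjusted p = 9.5e-10). It lay between -7.51 and -6.46 with any 1 of the 12 libraries left out. For GstD4 the fitted difference was -10.46 ± 2.67 (edgeR adjusted p = 0.013). It is no measure of size, because MB at 24 h held no count of GstD4, and the call was lost without MB 84 h replicate 3.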

How the results depend on the processing

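Of 47 called values of single genes, 20 kept their call in every alternative and 30 with any 1 library left out. Over 808 alternative values 717 kept theirs, and 1 reversed: GstZ2 between AL and MB at 24 h was -0.16 (log2) with spike-in and cell number scaling. That scaling lost 17 of the 47 calls, and the cause was not tested. It gave 3 called members in AL (84 h against 24 h, 5 in the main fit), 2 in the MB pupa (4), 7 between lineages at 24 h (4), 2 at 50 h (7), 3 at 84 h (5) and 3 over the AL ages (6), where 15.9%, 0.969%, 39.6%, 6.88%, 3.24% and 15.2% of all genes were called under the same scaling. DESeq2 called 8 in AL (84 h against 24 h), where it called 15.8% of all genes. The filter of at least 5 CPM, which tests fewer genes, called 1 for the difference in change (2), where 5.86% of its genes were called. With 1 library left out the counts were 3 to 6 in AL (84 h against 24 h), 2 to 4 in MB, 3 to 4 in the pupa, 4 at 24 h, 4 to 8 at 50 h and 2 to 3 at 84 h between lineages, 1 to 2 for the difference in change, 5 to 7 over the AL ages and 9 to 10 over the MB ages. Over all genes those fits called 215 to 324 higher and 124 to 199 lower for the difference in change (302 and 184 in the main fit). All-gene counts for the pairs of groups are given above, and those over the AL and MB ages are not given.

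Same-numbered libraries of different groups did not deviate together (84 pairs, r from -0.09 to 0.07, none over 0.1). Of 24 libraries, 10 were closest to their own number. No shared effect of the number was seen, which cannot show whether same-numbered libraries were prepared together. With the replicate block the counts of called members were 5, 4 and 4 for AL and MB (84 h against 24 h) and the pupa, 4, 6 and 5 between lineages at 24, 50 and 84 h, 2 for the difference in change, and 4 and 10 over the AL and MB ages. Of all genes, the block called 12.1%, 14.5% and 2.53% for AL, MB and the pupa. Between lineages it called 10.7%, 11.1% and 7.56%, and for the difference in change 4.4%. Over the AL and MB ages it called 14.8% and 17.5%. GstE3 lost its calls at 50 h (adjusted p = 0.055) and over the AL ages (0.061), and GstD4 over the AL ages (0.053).

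Members with few counts, among them GstD4, GstE3, GstE7, GstE12 and GstT1, limit what can be read from single comparisons. The same 3 cell numbers (106, 108 and 101) are recorded for AL at 24 h and at 84 h, which touches the scaling by cell number.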

Other observations

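Some other detoxification and redox genes passed the test between the lineages, in both directions, with several of the counts near the shares of all genes. Of the 37 tested genes for other detoxification enzymes, 5 passed at 24 h (1 higher and 4 lower in AL than in MB), 6 at 50 h (all lower in AL) and 4 at 84 h (all lower in AL), beside a background of 10.8%, 11.3% and 7.67% of all genes called in either direction. At 24 h 4.75% of all genes were called higher and 6.1% lower in AL. At 50 h 4.94% and at 84 h 3.25% were called lower in AL. Cyp28d2, a cytochrome P450 gene, was at 2.66 ± 0.377 CPM in AL and 35.8 ± 9.24 CPM in MB at 24 h (-3.73 ± 0.56, edgeR adjusted p = 2.2e-05), and at 1.89 ± 0.601 CPM in AL and 68.2 ± 29.5 CPM in MB at 84 h (-5.14 ± 0.58, edgeR adjusted p = 4.2e-07). Another P450 gene, Cyp4p1, was at 4.33 ± 2.47 CPM in AL and 23.6 ± 9.27 CPM in MB at 84 h (-2.43 ± 0.50, edgeR adjusted p = 0.00082). Values in parentheses are log2 fold changes ± SE, and levels are means ± SD of 3 libraries.

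The next counts come from short lists and stand beside 10.8%, 11.3% and 7.67% of all genes called between lineages at 24, 50 and 84 h. Of the 9 tested NADPH genes, 4 passed at 24 h (1 higher and 3 lower in AL), 2 at 50 h (1 higher, 1 lower) and 3 at 84 h (all lower). Men was lower in AL at 84 h (-1.01 ± 0.18, edgeR adjusted p = 7.4e-05), while Men-b, another malic enzyme gene, was higher in AL at 24 h (0.78 ± 0.14, edgeR adjusted p = 0.00012). Of the 11 tested genes for peroxide and superoxide removal, 3 passed at 24 h (1 higher and 2 lower in AL), 1 at 50 h and 2 at 84 h (all higher). Among them Jafrac1, a cytosolic peroxiredoxin gene, was higher in AL at 24 h (0.48 ± 0.14, edgeR adjusted p = 0.017), at 50 h (0.73 ± 0.14, edgeR adjusted p = 0.00017) and at 84 h (0.54 ± 0.14, edgeR adjusted p = 0.0087). These genes were named as those with the smallest adjusted p in their lists, and their values under the other processing settings are not given here.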
